A study of Mus musculus with 4 samples.

Results

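The chemokine genes, Cxcl1, Cxcl9, Cxcl10, Cxcl12, Cxcl13, Cxcl16, Ccl2, Ccl7, Ccl8 and Ccl11, were taken by name from a single-cell expression matrix of intestinal stromal cells (IntSCs), and their levels were described across stromal cell types and across the levels of Amotl2 and of the immediate early genes. They are 10 of the 18619 genes in that matrix. The cells came from the small intestine of adult mice on a C57BL/6J background that carried Pdgfrb-CreERT2, a tdTomato reporter and floxed Lats1 and Lats2 alleles, 1 week after Cre was induced with tamoxifen. Pdgfrb-CreERT2 acts in PDGFRβ+ stromal and mural cells, and tdTomato+ cells were sorted after microbead depletion of CD45+, CD326+ and CD31+ cells, with serosa, muscle layer and Peyer's patches removed. There was 1 library with this genotype and time. The 2 WT libraries and the library taken at the later time point were not analysed here, so no level below is a change caused by the deletion, and cells of 1 library are not replicates: no test was made, and intervals are 95% intervals for counting error alone. The study describes a pair of mice per genotype, and how they fell over the libraries is not given in the sources used here.

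Chemokines are small secreted proteins that guide leukocytes through G protein-coupled receptors, and in the intestinal lamina propria fibroblasts are one of their sources. Some are made constantly: Cxcl12 is the ligand of CXCR4, Cxcl13 draws B cells through CXCR5, Cxcl16 is made as a membrane-bound ligand of CXCR6, and Ccl11 (eotaxin) draws eosinophils through CCR3. Others are induced, by NF-kB signalling (Cxcl1, a neutrophil attractant acting on CXCR2, and the monocyte attractants Ccl2 and Ccl7, acting on CCR2) or by interferon (Cxcl9 and Cxcl10, ligands of CXCR3), and mouse Ccl8 acts on CCR8. LATS1 and LATS2 are the Hippo pathway kinases that restrain YAP and TAZ, and Amotl2 is a YAP/TAZ target gene. Immediate early genes such as Fos and Egr1 are transcribed within minutes of a stimulus.

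The genes lie on chromosomes 5, 6 and 11 in the mm10 genome. Cxcl1 (ENSMUSG00000029380, chr5:90891241-90893115, plus strand), Cxcl9 (ENSMUSG00000029417, chr5:92321347-92328079, minus strand), Cxcl10 (ENSMUSG00000034855, chr5:92346638-92348889, minus strand) and Cxcl13 (ENSMUSG00000023078, chr5:95956951-95961068, plus strand) are on chromosome 5, with 18.6 kb between Cxcl9 and Cxcl10. Ccl2 (ENSMUSG00000035385, chr11:82035571-82037453), Ccl7 (ENSMUSG00000035373, chr11:82045712-82047525), Ccl11 (ENSMUSG00000020676, chr11:82057823-82062955) and Ccl8 (ENSMUSG00000009185, chr11:82115185-82116799) lie in this order on the plus strand of chromosome 11, with 8.3 kb between the first pair. Ccl12 lies between Ccl11 and Ccl8. Cxcl16 (ENSMUSG00000018920, chr11:70453983-70459984, minus strand) is elsewhere on chromosome 11, and Cxcl12 (ENSMUSG00000061353, chr6:117168535-117181367, plus strand) is on chromosome 6. Cxcl10, Cxcl16 and Ccl2 each overlap a gene on the opposite strand (Art3, Zmynd15 and Gm17268), and whether the counting used strand is not given in the sources used here.

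Windows of 250 bases before the RefSeq start site (GRCm38.p6) were available for 6 of the 10 genes, and those of 3 are shown because the comparisons along the immediate early genes and Amotl2 (below) turn on them. Each is printed 5′ to 3′ on the strand of its gene, at chr5:90890995-90891244 for Cxcl1, chr5:92348890-92349139 for Cxcl10 (minus strand) and chr5:95956689-95956938 for Cxcl13. Capitals mark matches, on either strand, to the letters searched: an NF-kB motif (GGGA and CC with any 4 bases between), an interferon-stimulated response element or ISRE (GAAA and GAAA with any 2 bases between), an AP-1 motif (TGANTCA) and a TEAD motif (GGAATG).
Cxcl1: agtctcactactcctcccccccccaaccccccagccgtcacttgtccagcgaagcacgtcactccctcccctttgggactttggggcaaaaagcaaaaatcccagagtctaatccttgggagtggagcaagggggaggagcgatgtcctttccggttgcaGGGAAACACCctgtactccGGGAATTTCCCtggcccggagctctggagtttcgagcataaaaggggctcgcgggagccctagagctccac
Cxcl10: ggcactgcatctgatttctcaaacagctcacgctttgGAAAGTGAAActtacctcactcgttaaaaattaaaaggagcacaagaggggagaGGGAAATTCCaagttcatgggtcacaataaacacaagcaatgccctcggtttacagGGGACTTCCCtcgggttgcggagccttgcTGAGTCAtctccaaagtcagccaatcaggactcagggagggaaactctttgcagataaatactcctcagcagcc
Cxcl13: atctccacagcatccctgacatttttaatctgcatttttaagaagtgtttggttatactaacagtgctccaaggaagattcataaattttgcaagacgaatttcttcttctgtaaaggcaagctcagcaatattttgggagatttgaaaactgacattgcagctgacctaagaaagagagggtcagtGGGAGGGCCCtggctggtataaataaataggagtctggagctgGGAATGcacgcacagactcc
The Cxcl1 window held the NF-kB letters from -90 to -81 and, in overlapping matches on both strands, from -71 to -61, counted from the start site. The Cxcl10 window held them from -159 to -150 and from -103 to -94, beside an ISRE from -213 to -204 and an AP-1 match from -74 to -68. In the Cxcl13 window the NF-kB letters stood from -63 to -54 and the TEAD letters from -20 to -15. The window of Cxcl9 held 1 NF-kB match, and those of Cxcl12 and Ccl8 held none of the letters. Of 32851 RefSeq promoter windows of the same length, 17.6% held the NF-kB letters, 2.98% the ISRE, 6.75% the AP-1 and 12.6% the TEAD letters. A match is a description of the sequence and not a site of binding.

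The library held 4108 cells and 46054627 UMIs, and a cell had between 1965 and 35727 UMIs (median 10726). Clustering without the 10 chemokines, other chemokines, the 7 immediate early genes used below, YAP/TAZ target genes and sex-linked genes gave 10 clusters. Cluster 3 (694 cells) met all 4 markers of FB4 and was called FB4-like, and by the same rule on the marker lists cluster 7 (205 cells) was FB5-like, cluster 8 (77 cells) SMC-like and cluster 10 (45 cells) vFB3-like, after the fibroblast and smooth muscle cell classes of the study. The FB5-like cells met 6 of 6 FB5 markers, 3 of 6 smooth muscle cell markers and 1 of 7 mural cell markers. Foxl1, an FB5 marker, was at 12.4 CPM (UMIs per 1000000 UMIs of the cells) in them. It was higher in clusters 8 (25.0 CPM), 6 (23.1 CPM), 10 (17.2 CPM) and 5 (14.3 CPM). The 10 leading genes of the FB5-like cells held a single FB5 marker, Wif1. Beside it stood Kcnj8 and Abcc9, which are known from mural cells and are on no list used here. Plvap, an endothelial marker, was at rank 6 among the leading genes of the vFB3-like cells, at 488 CPM, while Pecam1 had no UMI in the library. Cluster 9 (69 cells) met all 7 mural cell markers but had Ano1, a marker of interstitial cells of Cajal, beside 1 mural marker among its leading genes and was left unnamed. The other Cajal markers were low there, with Kit at 5.28 CPM, from 3 UMIs, and Etv1 at 21.1 CPM. Etv1 was at 33.6 CPM over the library. Clusters 1, 2, 4, 5 and 6 (3018 cells) met no list in full and are called unclassed fibroblasts. Of these, cluster 4 met 3 of 4 FB4 markers and cluster 6 met 4 of 5 vFB3 markers. The list for vFB1-2, the other villus fibroblasts of the study, was not used for names, and the FB4-like cells met 3 of its 4 markers. The summed level of 7 immune markers was 22.3 to 74.2 CPM over the clusters, Ptprc (CD45) was at 0.478 CPM, and Cd3e had no UMI. Pdgfrb was at 533 CPM. The library held cells of both sexes, and 2009 cells had Xist and no Y-linked UMIs, 1545 had Y-linked UMIs and no Xist, and 116 had both. Floxed Lats1 and Lats2 had 656 and 2466 UMIs, which checks nothing without a WT library or knowledge of where the 3′ reads fall.

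The 10 chemokines made up 2849 CPM in all, and Cxcl12 and Ccl11 gave 79.9% of their 131220 UMIs. A cell held UMIs of a median of 4 of the 10 genes (range 0 to 9), and 14 cells held none. Over the library, Cxcl12 was at 1175 CPM and Ccl11 at 1101 CPM, Cxcl16 at 225 CPM, Cxcl13 at 121 CPM, Ccl2 at 75.4 CPM, Cxcl10 at 61.5 CPM, Cxcl1 at 59.6 CPM and Ccl8 at 19.3 CPM. Ccl7 (6.67 CPM) and Cxcl9 (4.91 CPM) were the sparse members. Since the kit reads 3′ ends, these levels carry no gene length.

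The genes differed in how their UMIs were spread over cells. After thinning every cell to 5000 UMIs, which left out 94 shallower cells, Cxcl12 was seen in 94.0% of cells and Ccl11 in 84.0% (97.4% and 89.9% without thinning). Cxcl1 was seen in 10.6% of cells (14.2% without thinning), Cxcl10 in 10.5% (14.8%) and Ccl2 in 13.5% (18.5%). Part of the genes were carried by few cells. The 205 cells with the most UMIs of the gene held 74.5% of the UMIs of Cxcl1, 77.9% of those of Cxcl10, 70.3% of those of Ccl2, 64.1% of those of Ccl8 and 58.9% of those of Cxcl13, against 24.8% for Ccl11, 18.0% for Cxcl16 and 15.1% for Cxcl12. The sparse Cxcl9 and Ccl7 were seen in 90 and 83 cells in all. A single cell held 202 of the 2833 UMIs of Cxcl10 and another held 143 of the 3471 of Ccl2, so the counting intervals of these genes are narrower than their spread between cells. From the Y-linked UMIs found in the 2004 cells that held 5 or more of Xist, free RNA was put at no more than 8.64% of a gene's library level. This takes free RNA to have the make-up of the cells kept. For genes also made by cells that were removed, the bound may be too low. Levels at or below that bound were found in 2 clusters for Cxcl9, 3 for Ccl7, 1 for Ccl8 and 1 for Ccl11.

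Among the constantly made chemokines, Cxcl12 was highest in the FB5-like cells of cluster 7 at 2034 CPM (95% interval 1979 to 2091), 1.30 times the next, the vFB3-like cells of cluster 10. The 5 unclassed clusters lay between 1229.9 and 1518 CPM, the FB4-like cells of cluster 3 were at 525 CPM, the SMC-like cells of cluster 8 at 441 CPM and cluster 9 was lowest at 279.8 CPM. Ccl11 followed another order. It was highest in the SMC-like cells at 2641 CPM (2527 to 2760), followed by clusters 5 (2327 CPM) and 6 (1924 CPM) and the FB5-like cells (1869 CPM), the last 2 of which did not differ beyond counting error. The FB4-like cells held 222 CPM of Ccl11, and the 79.1 CPM of the vFB3-like cells were under the free RNA bound of 95.1 CPM.

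Cxcl13 and Cxcl16 were both highest in cluster 5. Cxcl13 was at 323 CPM there (303 to 343), at 225 CPM in cluster 2, and at about the same level in cluster 6 (152 CPM) and the vFB3-like cells (149.6 CPM). It was lowest in cluster 1 (29.7 CPM) and in the SMC-like cells, the FB5-like cells and cluster 9 (22.3, 21.2 and 15.8 CPM), and no neighbours among these 4 differed beyond counting error. Of the 53 UMIs of the FB5-like cells 32 were in 1 cell, without which their level was 8.50 CPM, and that of cluster 9 was 9.13 CPM without its top cell, both under the free RNA bound of 10.5 CPM. The share of cells with a Cxcl13 UMI after thinning was 51.2% in cluster 5 and 8.79% in cluster 1. Cxcl16 was at 428 CPM in cluster 5 (406 to 451), and the vFB3-like cells, clusters 4 and 2, the FB5-like cells and cluster 6 lay between 269 and 344 CPM with no step between neighbours beyond counting error. It was at 64.4 CPM in the FB4-like cells and at 31.7 CPM in cluster 9. Ccl8 shared the peak in cluster 5 (62.7 CPM, 2.00 times the 31.3 CPM of cluster 6), was at 3.96 CPM in the FB4-like cells, and had no UMI in the vFB3-like cells, where 3 UMIs would be 5.16 CPM.

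Cxcl1 and Cxcl10 peaked elsewhere. Cxcl1 was highest in cluster 9 at 339.6 CPM (293 to 391), 2.89 times (2.45 to 3.39) the 118 CPM of cluster 4, and was seen there in 43.8% of thinned cells. Without the 1 cell with the most UMIs it was at 265 CPM. Clusters 1 and 3 followed at 73.5 and 68.9 CPM, and the FB5-like cells were lowest at 9.20 CPM, or 4.82 CPM without 1 cell that held 11 of the 23 UMIs, which is under the free RNA bound. Cxcl10 was highest in cluster 4 at 199 CPM (188 to 211), 1.39 times the 143 CPM of the vFB3-like cells (165 and 87.3 CPM without the top cell of each), and lowest in the FB5-like cells at 6.40 CPM. The 10 leading genes of cluster 4 held Cxcl10 itself at rank 1 and the immediate early genes Fosb and Fos at ranks 6 and 10. Those genes had no part in the clustering, but Btg2, at rank 8, was not among the genes left out.

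For the other induced members single cells carried much of some levels. Ccl2 was at 268 CPM in the vFB3-like cells, but 143 of the 156 UMIs there came from 1 cell. Without it the level was 23.2 CPM (12.3 to 39.6). With the top cell of every cluster left out in this way, cluster 9 was highest at 137 CPM (164 CPM with all its cells), cluster 4 followed at 115 CPM (135 CPM), and the vFB3-like cells were at rank 7. Ccl7 was a gene of the FB5-like cells, with 68.0 CPM (58.2 to 79.1) in 15.5% of thinned cells, against 14.1 CPM in cluster 9, where all 8 UMIs were in 1 cell, 9.66 CPM in the FB4-like cells and at most 3.75 CPM elsewhere. Clusters 5, 6 and 10 had no Ccl7 UMI. Cxcl9 was at 49.9 CPM in the vFB3-like cells and 20.8 CPM in cluster 5, and without the 1 cell with the most UMIs in each these were 19.4 and 11.2 CPM. The SMC-like cells and cluster 9 had no Cxcl9 UMI, with 3 UMIs equal to 3.94 and 5.28 CPM.

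**Figure D1:**
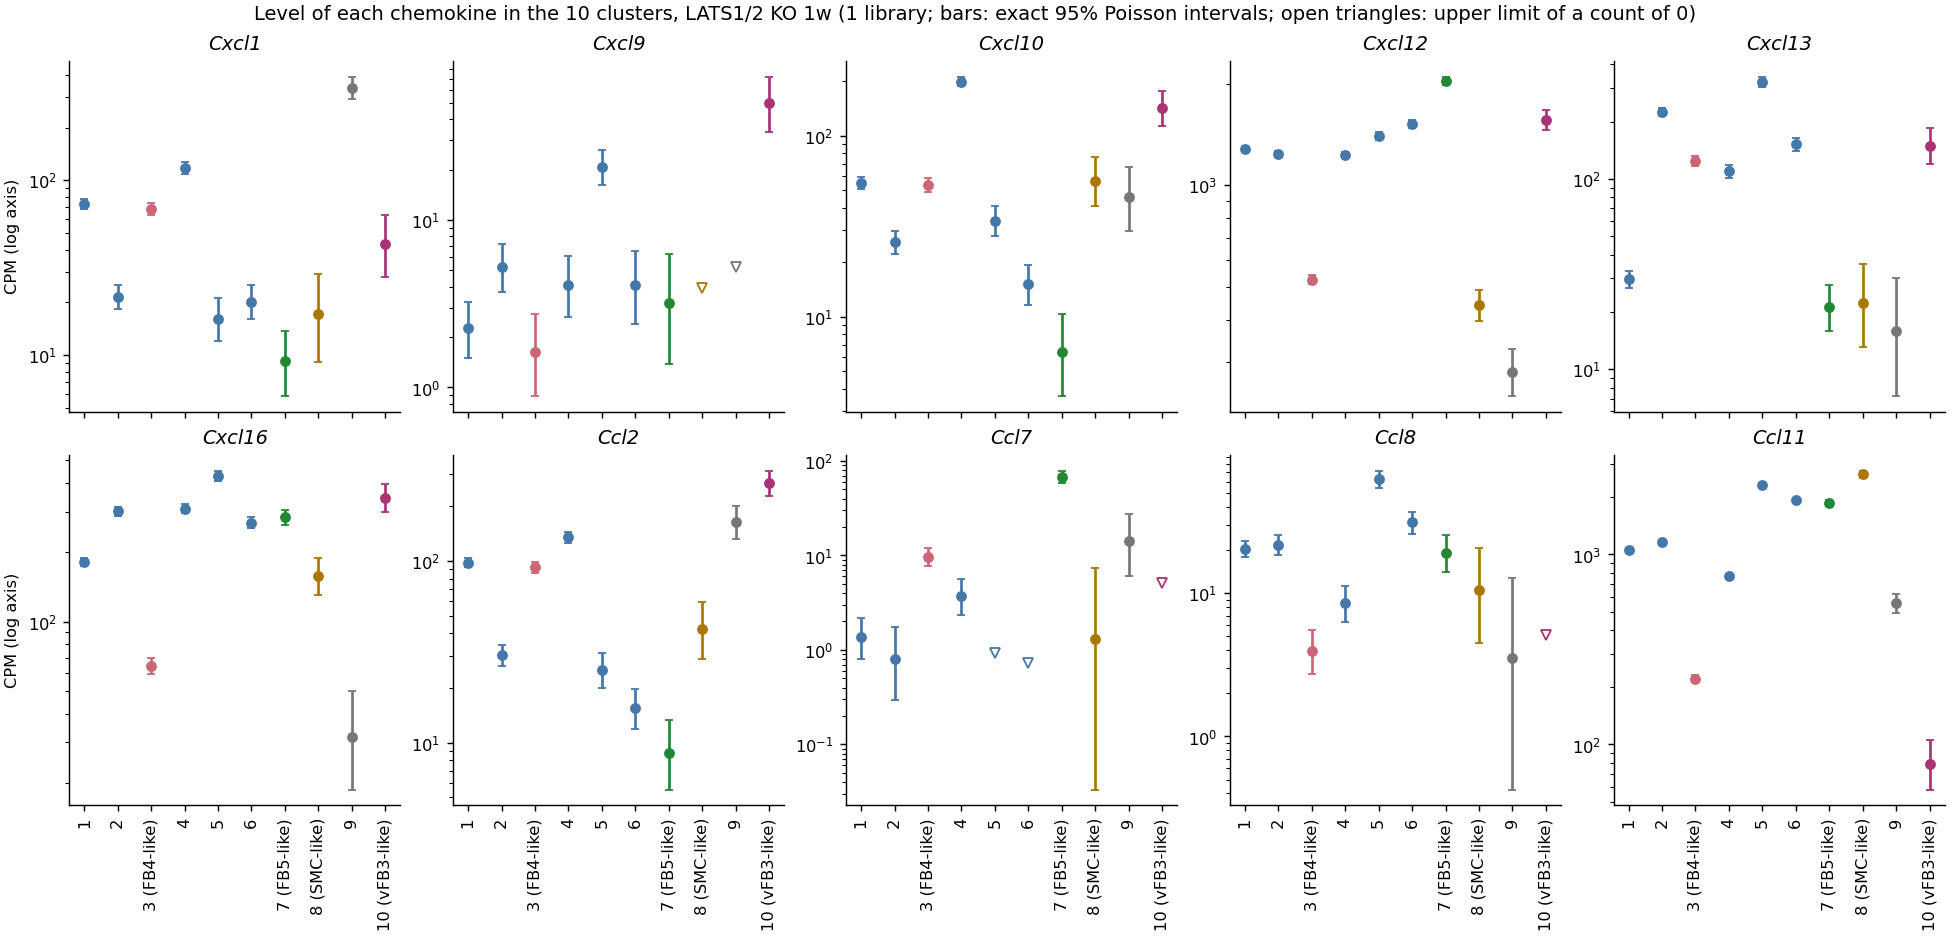
Level of each of the 10 chemokines (CPM, log axis) in each of the 10 clusters, with points for the levels, bars for the 95% counting interval and open triangles at 3 UMIs where a cluster had none. Cxcl12 spans 279.8 to 2034 CPM and Ccl11 79.1 to 2641 CPM over the clusters, while Ccl7 stands out in cluster 7 at 68.0 CPM and Cxcl1 in cluster 9 at 339.6 CPM.

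Most of the constantly made chemokines were lower in the FB4-like cells than in the unclassed fibroblasts. The 694 FB4-like cells were set against the 3018 unclassed fibroblasts, and all 10 genes had at least 50 UMIs in both sets together, the minimum used. Of the 12149 genes that met this minimum, 3.8% were at least 2 times higher and 6.44% at least 2 times lower in FB4-like cells, and of the 10 chemokines 1 was higher and 5 were lower by that much, with a median ratio of 0.603 against 0.923 over all genes tested. Ccl11, the eosinophil attractant, was at 222 against 1263 CPM, a ratio of 0.176 (0.168 to 0.184). Cxcl12 was at 525 against 1304 CPM, a ratio of 0.403 (0.391 to 0.415). The membrane-bound Cxcl16 had a ratio of 0.242 (0.222 to 0.264), Ccl8 of 0.164 (0.113 to 0.231) and Cxcl9 of 0.308 (0.165 to 0.531). These 5 genes had the lower level in the FB4-like cells under each of the 14 alternatives run for this comparison, with ratios of at most 0.485. With the free RNA bound subtracted the ratio of Ccl11 was 0.109 and that of Ccl8 0.102.

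Ccl7 was the single gene of the 10 with a higher level by at least 2 times, with 83 UMIs in FB4-like and 45 in unclassed cells and a ratio of 7.10 (4.88 to 10.4). Without 1 FB4-like cell that held 25 of these UMIs the ratio was 4.97. Over the 14 alternatives it stayed above 1 but ran from 1.53, with each cell assigned by its own marker UMIs, and 2.37 at 8000 to 14000 UMIs to 13.9 with all variable genes kept in the clustering and 18.3 in cells with Y-linked UMIs alone, so its size is not well set. It was 10.7 in cells with Xist alone, 12.1 without cells holding both and 11.6 with the free RNA bound subtracted. The ratios of Cxcl1 (1.20, 1.09 to 1.32) and Ccl2 (1.29, 1.19 to 1.396) were above 1 and those of Cxcl10 (0.803, 0.725 to 0.888) and Cxcl13 (0.946, 0.884 to 1.01) below it. Their direction changed with the cells taken. Among cells with 8000 to 14000 UMIs the ratio of Cxcl1 was 0.866 and that of Ccl2 0.949, and in cells with Y-linked UMIs alone that of Cxcl10 was 1.02. The ratio of Cxcl13 was 1.38 in cells with Xist alone and 0.465 in cells with Y-linked UMIs alone. FB4-like cells also had a median of 12079 UMIs per cell against 10409.5, and an immediate early gene level of 5761 against 3784 CPM, and the part of either in these ratios was not tested.

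**Figure D2:**
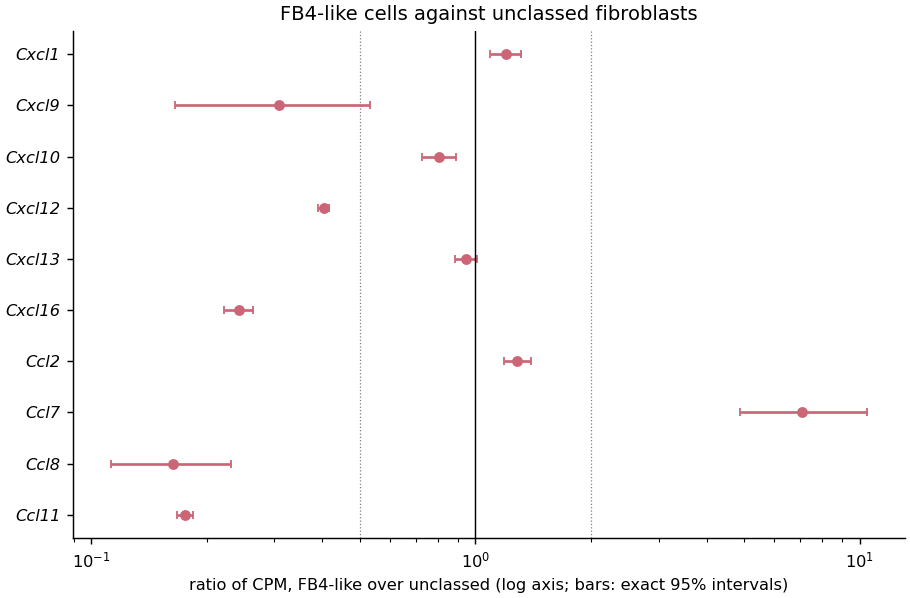
Ratio of the level in FB4-like cells to that in unclassed fibroblasts (log axis) for the 10 chemokines, with 95% counting intervals as bars. Ccl11, Ccl8, Cxcl16, Cxcl9 and Cxcl12 lie under 0.5 and Ccl7 lies at 7.10, while Cxcl1, Cxcl10, Cxcl13 and Ccl2 lie near 1.

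Cxcl1, Cxcl10 and Ccl2 were the members with the largest differences along the immediate early gene level. The paper states that dissociating the tissue may itself raise immediate early genes, and that PDGFRβ+Fosb+ cells were also seen in vivo. The part of dissociation in the levels below was not tested. The unclassed fibroblasts were ranked by the summed level of Fos, Fosb, Jun, Junb, Egr1, Ier2 and Atf3 per UMI of the cell, and the upper and the lower tercile (1006 cells each, at 9113 and 174 CPM of these 7 genes) were compared. Cxcl1 was at 136 CPM in the upper and 2.24 CPM in the lower tercile, a ratio of 61.0 (41.1 to 94.5). The lower level was under the free RNA bound of 5.15 CPM for Cxcl1, so the fold against true expression is not known. Cxcl10 was at 135 against 8.42 CPM, a ratio of 16.1 (13.1 to 20.0). Ccl2 was at 157 against 8.77 CPM, a ratio of 17.9 (14.6 to 22.2). These folds depended on how the cells were split, on free RNA and on depth. With the cells split at the median they were 11.7 for Cxcl1, 10.04 for Cxcl10 and 10.9 for Ccl2. With the free RNA bound subtracted they were 41.96 for Cxcl10 and 66.6 for Ccl2, and Cxcl1 gave none. At 8000 to 14000 UMIs the fold of Cxcl10 was 27. The middle tercile stood between, at 34.2 CPM of Cxcl1, 57.1 CPM of Cxcl10 and 50.3 CPM of Ccl2. Ccl7, with 20 against 3 UMIs, was under the minimum, and its ratio of 6.77 (2.01 to 35.6) was 3.39 (0.873 to 19.2) without 1 cell.

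The ratios of the other members with at least 50 UMIs were below 1. Cxcl13 was at 80.7 CPM in the upper, 132 CPM in the middle and 182 CPM in the lower tercile, a ratio of upper to lower of 0.444 (0.410 to 0.481). Ccl11 went from 1725 CPM in the lower to 916 CPM in the upper tercile (0.531, 0.518 to 0.544), and Ccl8 had a ratio of 0.532 (0.444 to 0.635). Cxcl12 (0.867, 0.847 to 0.887) and Cxcl16 (0.885, 0.840 to 0.931) differed little. The ratio of Cxcl9, 0.508 (0.316 to 0.800), was 0.982 without 1 cell of cluster 5 that held 29 UMIs. Of 9 members with at least 50 UMIs, 3 were at least 2 times higher and 1 was at least 2 times lower, where 4.28% and 1.31% of all 11299 genes tested were.

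The terciles differed in other ways. Of the upper tercile 464 cells were of cluster 4, against 2 of the lower, and of cluster 6 there were 3 against 265. Cells with Xist and no Y-linked UMI were 40.6% of the upper and 53.3% of the lower tercile. Among cells with Xist alone the ratios were 86.9 for Cxcl1, 10.9 for Cxcl10, 16.05 for Ccl2 and 0.782 for Cxcl13, and among cells with Y-linked UMIs alone they were 28.2, 62.7, 24.5 and 0.184. Each kept its side of 1. Terciles were also taken within each of the 5 unclassed clusters. The ratio of Cxcl1 was above 1 in 5 of 5 clusters with its interval (3.08 to 47.2), those of Cxcl10 and Ccl2 in 4 of 5, and in cluster 4, the ratios were 1.04 for Cxcl10 and 0.980 for Ccl2. The ratio of Cxcl13 was below 1 with its interval in 2 of 5 clusters (range 0.413 to 1.07) and that of Ccl11 in 3 of 5 (range 0.433 to 1.02). That of Ccl8 turned with the cluster, from 0.599 (0.417 to 0.853) in cluster 5 to 2.22 (1.06 to 4.89) in cluster 4, and was above 1 in 3 of 5.

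The FB4-like cells, which were not part of the terciles above, gave the same direction for Cxcl1, Cxcl10, Cxcl13, Ccl2 and Ccl11. Their upper and lower tercile (231 cells each) held 11143 and 1058 CPM of the immediate early genes, and cells with Xist alone were 43.3% and 60.6% of them, whose part in these ratios was not tested. The ratio of upper to lower was 7.50 (5.39 to 10.7) for Cxcl1 and 12.6 (7.89 to 21.2) for Cxcl10, and 0.412 (0.350 to 0.482) for Cxcl13. Ccl2 had a ratio of 1.72 (1.41 to 2.09), which was 3.05 (2.41 to 3.89) without 1 cell of the lower tercile that held 73 UMIs. Ccl11 was lower, at 0.765 (0.686 to 0.852), and 0.828 (0.742 to 0.925) without 1 cell, while the ratios of Cxcl12 (1.09) and Cxcl16 (0.910) were nearer to 1. Of 7 members tested 2 were higher and 1 was lower by at least 2 times, and of all 8472 genes tested 2.73% and 0.449% were.

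**Figure D3:**
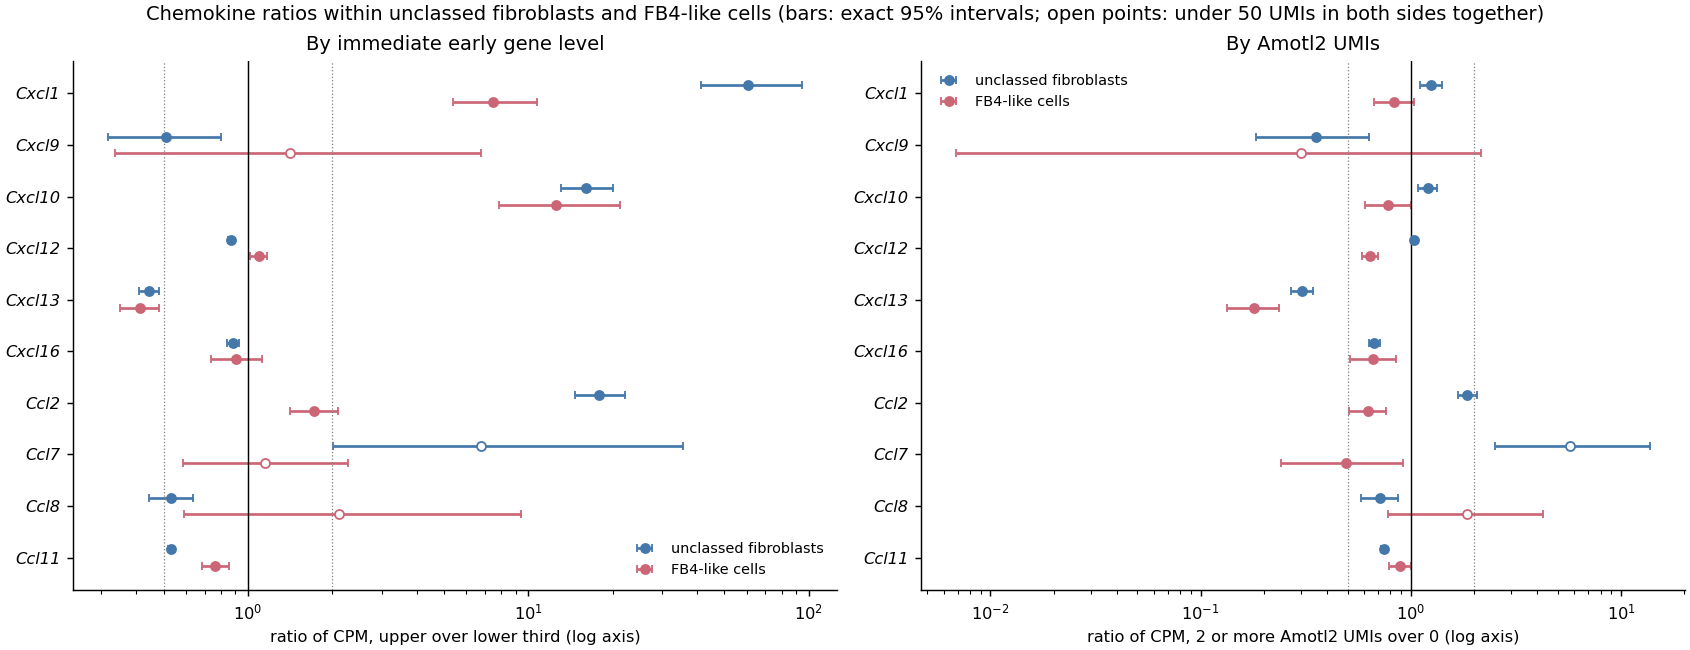
Ratio of levels (log axis) between the upper and lower tercile of immediate early gene level and between cells with at least 2 and with 0 thinned Amotl2 UMIs, for the chemokines in unclassed fibroblasts and in FB4-like cells, with 95% counting intervals. Cxcl1, Cxcl10 and Ccl2 lie above 1 for the immediate early genes in unclassed fibroblasts (61.0, 16.1 and 17.9, or 11.7, 10.04 and 10.9 with cells split at the median), where the lower Cxcl1 level is under its free RNA bound, and Cxcl13 lies below 1 for both contrasts in both sets of cells.

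Lists of other genes of the same pathways were read beside the members. Of 10 NF-kB response genes 8 were at least 2 times higher in the upper immediate early gene tercile of the unclassed fibroblasts, where 4.28% of all genes tested were, with a median ratio of 4.47 against 1.02 over all genes. Il6, an inflammatory cytokine, was at 39.8 against 1.25 CPM and Nfkbiz, a nuclear IkB protein, at 69.1 against 2.51 CPM, and since both lower levels were under their free RNA bounds (1.51 and 2.96 CPM) no fold is given. Icam1, a leukocyte adhesion molecule, had a ratio of 8.82, while Vcam1 was at 0.835. Of 12 interferon response genes 1 was that much higher (Irf1, 4.17), with a median of 0.971. Cxcl2, a neighbour of Cxcl1 that acts on the same receptor, was at 14.7 against 0.448 CPM, the lower level being at its free RNA bound of 0.445 CPM. In FB4-like cells 7 of the 10 NF-kB response genes and 1 of the 12 interferon response genes were at least 2 times higher between the terciles (2.73% of all genes), and 1 of the latter was that much lower (0.449% of all genes). In the comparison of FB4-like with unclassed cells 1 NF-kB response gene was higher (Nfkbiz, 2.28) and 1 lower (Vcam1, 0.394) by at least 2 times, and none of the 12 interferon response genes passed 2 times in either direction, where 3.8% and 6.44% of all genes were that much higher and lower.

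Cxcl13 was lower where Amotl2 was higher. After thinning to 5000 UMIs the unclassed fibroblasts held 1740 cells with 0, 718 with 1, 310 with 2 and 195 with at least 3 Amotl2 UMIs. Cxcl13 was at 169 CPM, 107.9 CPM, 65.1 CPM and 31.1 CPM in these in turn. Cxcl16 went from 299 CPM over 241 and 219 to 172 CPM, and Ccl11 from 1401 over 1134 and 1061 to 1016 CPM. All 3 had their highest level where Amotl2 was not seen. Cxcl12 stayed between 1263 and 1376 CPM with no order, and Cxcl1 between 53.3 and 80.1 CPM. Ccl2 was at 54.9, 86.3, 72.5 and 146 CPM, and Ccl8 at 27.5, 20.3, 19.9 and 19.2 CPM.

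For the 505 cells with at least 2 against the 1740 with 0 Amotl2 UMIs, Amotl2 itself was at 392 against 49.2 CPM, and the immediate early gene level was alike at 3746 and 3781 CPM. The ratio of Cxcl13 was 0.304 (0.270 to 0.341), that of Cxcl16 0.670 (0.629 to 0.713), that of Ccl8 0.714 (0.580 to 0.873) and that of Ccl11 0.745 (0.724 to 0.765). Cxcl9, with 0.354 (0.183 to 0.631), was at 0.481 without 1 cell and ran from 0.0620 in cells with Xist alone to 0.735 for at least 1 Amotl2 UMI, below 1 in each of its 16 alternatives. These 5 ratios were below 1. The ratio of Cxcl12 was 1.04, that of Cxcl1 1.25 (1.11 to 1.4001) and that of Ccl2 1.86 (1.68 to 2.05), the last being 1.505 without 1 cell that held 121 UMIs. Cxcl10 changed side: its ratio of 1.20 (1.08 to 1.34) was 0.713 (0.625 to 0.811) without the 1 cell of cluster 4 that held 202 UMIs. Ccl7, at 29 UMIs, was under the minimum and its ratio of 5.70 rested on 1 cell with 17 UMIs (0.603 without it). Of 9 members tested none was at least 2 times higher and 2 were that much lower, and of all 11440 genes tested 1.09% and 1.22% were. None of the NF-kB or interferon response genes passed 2 times in either direction.

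**Figure D4:**
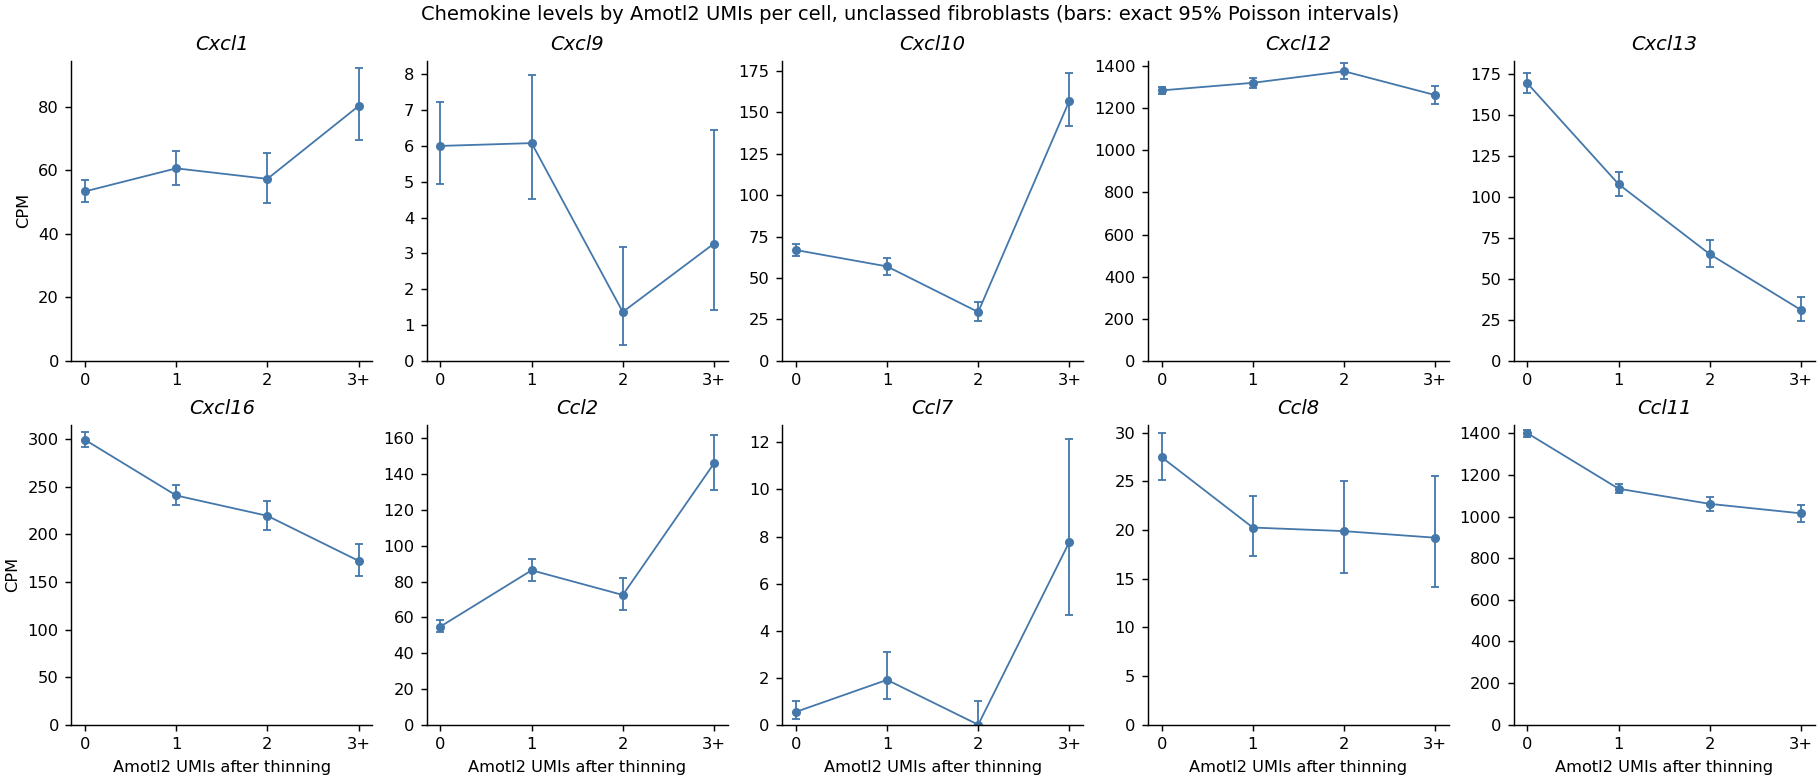
Level (CPM) of the chemokines in unclassed fibroblasts with 0, 1, 2 and at least 3 Amotl2 UMIs after thinning to 5000 UMIs per cell, with 95% counting intervals as bars. Cxcl13 falls from 169 to 31.1 CPM over the 4 bins, Cxcl12 stays between 1263 and 1376 CPM, and Cxcl10 is at 29.4 CPM with 2 UMIs and at 157 CPM in the last bin, which holds the cell with 202 of its UMIs.

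Cells with Xist alone were 53.7% of those with at least 2 and 44.8% of those with 0 Amotl2 UMIs, and the ratio of Cxcl13 was 0.180 among them and 0.503 among cells with Y-linked UMIs alone. Amotl2 and cluster went together. Of the cells with at least 2 Amotl2 UMIs 364 were of cluster 1 and 27 of cluster 2, and of those with 0 there were 358 and 589. Cluster 1 was also the unclassed cluster with the least Cxcl13. Within clusters the ratio of Cxcl13 was below 1 with its interval in 3 of 5, at 0.273 in cluster 2, 0.518 in cluster 5 and 0.558 in cluster 6, while in cluster 1 it was 0.852 (0.659 to 1.10) and in cluster 4 1.29 (0.991 to 1.67). The ratio of Ccl11 was below 1 with its interval in 5 of 5 clusters, between 0.556 and 0.812. That of Cxcl16 was so in 2 of 5, and that of Ccl2 was above 1 in 2 and below in 2.

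The FB4-like cells had the lower Cxcl13 at high Amotl2 as well, with a ratio of 0.179 (0.133 to 0.236) between 129 cells with at least 2 and 398 with 0 Amotl2 UMIs. Cells with Xist alone were 66.7% of the former and 47.5% of the latter, and their immediate early gene levels were 5170 and 6198 CPM, whose part in these ratios was not tested. Here Cxcl12 (0.637, 0.584 to 0.694) and Ccl2 (0.624, 0.508 to 0.762) were below 1, in contrast to the unclassed fibroblasts, though that difference was not tested. Cxcl16 had a ratio of 0.661, Ccl11 of 0.888, Cxcl1 of 0.832 and Cxcl10 of 0.782. That of Ccl7, 0.491 (0.242 to 0.917), was 0.789 without 1 cell. Of 8 members tested none was higher and 2 were lower by at least 2 times, and of all 8913 genes tested 2.14% and 1.75% were.

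Crossing both measures in the unclassed fibroblasts gave 583, 594 and 563 cells with 0 Amotl2 UMIs in the lower, middle and upper immediate early gene tercile, and 164, 165 and 176 cells with at least 2. Cxcl13 was lower with Amotl2 in each tercile, with ratios of 0.257 (0.211 to 0.310) in the lower, 0.366 (0.302 to 0.440) in the middle and 0.316 (0.244 to 0.404) in the upper. It ran from 225 CPM in cells low for both to 33.8 CPM in cells high for both. Without the 1 cell with the most UMIs in each comparison the 3 ratios were 0.265, 0.391 and 0.337.

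Cxcl1, Cxcl10 and Ccl2 had no such order along Amotl2. In the upper tercile Cxcl10 was lower with Amotl2, at 88.9 against 154 CPM (0.578, 0.491 to 0.677), Ccl2 was higher, at 185 against 123 CPM (1.51, 1.33 to 1.71), and the interval of the Cxcl1 ratio held 1 (1.07, 0.934 to 1.22). In the middle tercile Cxcl1 was higher with Amotl2, at 51.4 against 26.4 CPM (1.95, 1.505 to 2.51). The ratios of Cxcl10 and Ccl2 there, 3.71 and 2.82, were 1.21 (0.944 to 1.54) and 1.18 (0.905 to 1.52) without the 1 cell with the most UMIs of the gene (202 of Cxcl10, 121 of Ccl2). In the lower tercile little could be read: the levels of Cxcl1 (2.43 and 1.97 CPM) and that of Cxcl10 with Amotl2 (3.94 CPM, from 8 UMIs) were under their free RNA bounds of 5.15 and 5.31 CPM, and the Ccl2 ratio of 2.03 (1.21 to 3.35) was 0.873 (0.419 to 1.69) without 1 cell that held 16 UMIs. Cxcl9 had ratios below 1 in each tercile (0.0608, 0.718 and 0.407), but from 1, 9 and 3 UMIs in the cells with Amotl2, and that of the middle tercile was 1.86 (0.719 to 4.54) without 1 cell.

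**Figure D5:**
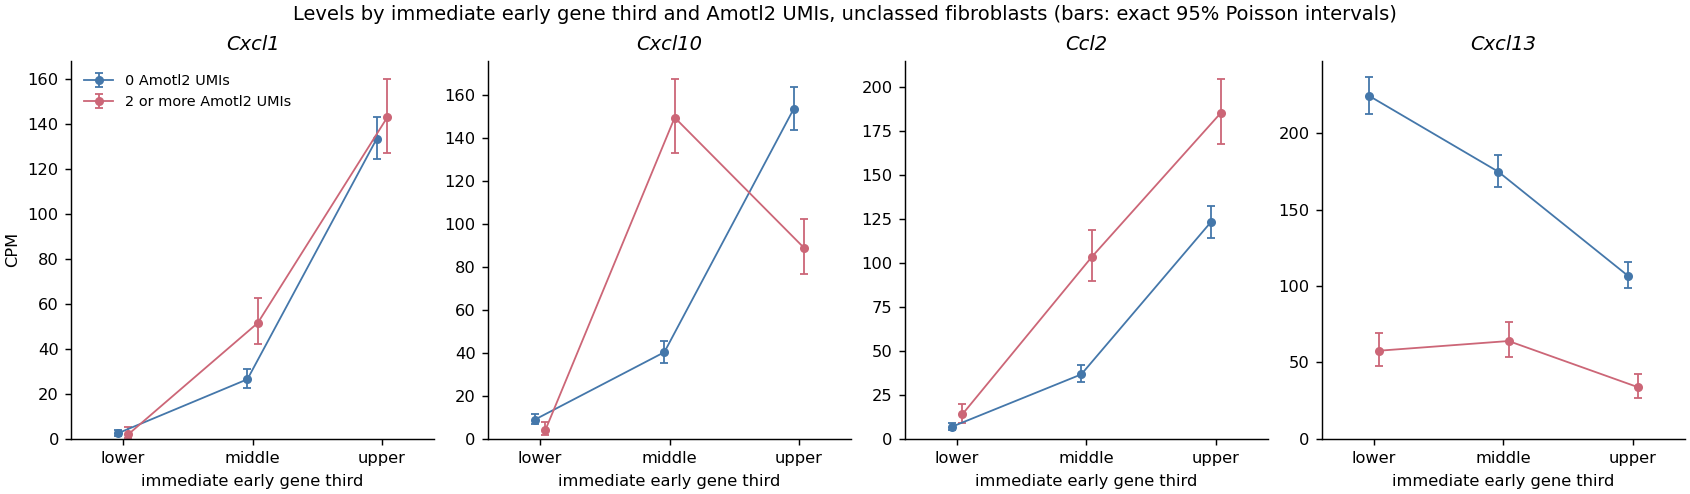
Level (CPM) of Cxcl1, Cxcl10, Ccl2 and Cxcl13 in unclassed fibroblasts of the lower, middle and upper immediate early gene tercile, drawn for cells with 0 and with at least 2 thinned Amotl2 UMIs, with 95% counting intervals. Cxcl13 is lower with Amotl2 in each tercile, while Cxcl10 is higher with it in the middle tercile (149.7 against 40.3 CPM), which holds the cell with 202 UMIs, and lower in the upper.

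The genes with the most similar pattern over the 4108 cells differed between the induced and the constantly made members. Among 10162 genes compared by Pearson's r, which is given as a description because cells of 1 library share depth and composition, Fos came first for Cxcl1 (r = 0.313), Cxcl10 (r = 0.287) and Ccl2 (r = 0.326), followed by Gadd45b for Cxcl1 and Ccl2 and Btg2 for Cxcl10. Adamdec1, a metalloprotease gene of lamina propria fibroblasts, came first for Cxcl12 (r = 0.489), Cxcl16 (r = 0.454) and Ccl11 (r = 0.514). Among the unclassed fibroblasts alone these values were 0.135, 0.2005 and 0.212, lower than those of Aldh1a3 with Cxcl12 (0.246), Tmem176b with Cxcl16 (0.359) and Fhl2 with Ccl11 (0.3985). Tmem176b came first for Cxcl13 (r = 0.323) and second for Cxcl16. Ccl8 had no gene above 0.143 (Fhl2). Among pairs of members the highest values were 0.364 for Cxcl12 and Cxcl16, 0.351 for Cxcl16 and Ccl11, 0.281 for Cxcl12 and Ccl11 and 0.214 for Cxcl1 and Ccl2. Within the unclassed fibroblasts Cxcl12 and Cxcl16 were at 0.173, Cxcl16 and Ccl11 at 0.203, Cxcl12 and Ccl11 at 0.093 and Cxcl1 and Ccl2 at 0.184. The highest pairs there were Cxcl13 with Cxcl16 (0.252) and Cxcl13 with Ccl11 (0.230).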

How the data were processed

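Droplets were made with the 10x Chromium Single Cell 3′ v3 kit, and per the labels reads were processed with Cell Ranger 3.0.2 and Seurat 3.0.1 on mm10 (the methods name Seurat 3.0.0). The authors kept cells with 1000 to 6000 genes and at most 7% mitochondrial UMIs and genes seen in at least 3 cells, removed immune and endothelial clusters, and deposited natural log values, ln(1 + UMIs of the gene per 10000 UMIs of the cell). UMI counts were recovered from these deposited values: after the log was undone, 100.00% of the 13789523 values above 0 were a whole number of times the lowest value above 0 in that cell (tolerance 0.001), so analyses planned for counts were run on the recovered counts. All 4108 cells met the stated limits (1128 to 5995 genes, at most 6.99571% mitochondrial UMIs). No doublet caller was run, and cells with both Xist and Y-linked UMIs were left out as an alternative.

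Cells were clustered with Seurat 5.3.0 (R 4.3.3; 2000 variable genes, 30 components, resolution 0.5). A marker counted if 10% or more of the cluster's cells held it and it stood 2 times or more above the median cluster among the rest. Names came from the FB4, FB5, smooth muscle cell, mural cell and vFB3 lists. A name was given when all markers of 1 of these lists counted and outnumbered those of other lists among the cluster's 10 leading genes. Levels are CPM (UMIs per 1000000 UMIs) with Poisson intervals, ratios have conditional binomial intervals and shares Clopper-Pearson intervals (95%, scipy 1.17.1, Python 3.11.15, numpy 2.4.6, pandas 2.3.3). They cover counting error only and take UMIs as independent. A difference was counted from 2 times, over genes with at least 50 UMIs in both sets together. Scripts were tested on simulated data. All 10 members are named, and other genes come from lists of NF-kB response, interferon response, chemokine and receptor genes or are the most similar genes. The latter are the 3 most similar, among genes seen in at least 5% of cells, for each member with at least 500 UMIs. The members and lists were chosen with earlier results of these data known. The rule that names clusters, that for cells assigned by their own markers (at least 3 in 4 markers of a list), that for flagging sex differences, the use of members with at least 50 UMIs in counts under alternatives the alternative that leaves out 1 cell and the crossing with the middle tercile were set after the levels were seen. Gene positions are from GENCODE M21 (mm10), and promoter windows from RefSeq (GRCm38.p6).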

Additional observations from a re-analysis of the deposited data

Results flagged for a closer look

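The ratio of Cxcl13, the B cell attractant, between FB4-like cells and unclassed fibroblasts went in opposite directions in cells of the 2 sexes. It was 1.38 (95% counting interval 1.26 to 1.49) among cells with Xist and no Y-linked UMIs and 0.465 (0.398 to 0.541) among cells with Y-linked UMIs and no Xist. The difference was not tested, since the cells come from 1 library. The study describes a pair of mice per genotype, so that sex and animal cannot be told apart.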

How the results depend on the processing

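Under 20 alternative settings 460 member ratios were recomputed, of which 430 kept their side of 1. The cause of the changes was not tested, unless the setting names it. Between FB4-like and unclassed cells, Cxcl10 was at 1.19 with all variable genes kept, 1.18 with cells assigned by their own markers and 1.02 in cells with Y-linked UMIs alone, Cxcl1 at 0.928 with own markers and 0.866 at 8000 to 14000 UMIs, and Ccl2 at 0.949 at that depth. Between immediate early gene terciles, Ccl7 was at 0.470 with own markers, Cxcl9 at 1.503 in cells with Y-linked UMIs alone and 1.05 at 8000 to 14000 UMIs, and Cxcl16 at 1.04 with at most 5% mitochondrial UMIs. Along Amotl2, Cxcl12 was at 0.992 in cells with Xist alone. Cxcl10 was at 0.708 with all variable genes, 0.745 with own markers, 0.864 and 0.671 in cells with Xist or Y-linked UMIs alone, 0.712 without cells holding both, 0.474 at 8000 to 14000 UMIs, 0.99998 for at least 1 Amotl2 UMI, 0.734 for Amotl2, Ajuba, Lats2 and Vegfc summed and 0.713 without 1 cell. Ccl7 was, in the same order of settings, at 0.604, 0.243, 0, 0.843, 0.607, 0.974 and, without 1 cell, 0.603.

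The count of members at least 2 times higher in FB4-like cells was 0 instead of 1 with own markers, in cells with Y-linked UMIs alone and at 8000 to 14000 UMIs, where Ccl7 had under 50 UMIs or a ratio under 2. The count lower in the upper immediate early gene tercile was 2 instead of 1 with own markers, in cells with Y-linked UMIs alone, without mitochondrial and ribosomal protein genes, with free RNA subtracted and for Fos and Fosb alone, and 0 with at most 5% mitochondrial UMIs. Along Amotl2, 1 member instead of none was higher in cells with Y-linked UMIs alone and with no minimum count, and 0 instead of 2 were lower in cells with Y-linked UMIs alone and 1 with at most 5% mitochondrial UMIs, for at least 1 Amotl2 UMI and for the 4 genes summed. The median share of cells with a UMI over the members, 12.1% at 5000 UMIs, was 7.06% at 2000 UMIs and 16.6% without thinning. With free RNA subtracted the levels of Cxcl1 and Ccl7 in the lower tercile and of Ccl7 at 0 Amotl2 UMIs were at or below 0 and gave no ratio. The alternative without 1 cell was chosen after seeing the data. No paired analysis was possible because there was 1 library. Cxcl9 and Ccl7, with 226 and 307 UMIs, are limited by depth.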

Other observations

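Of 23 other chemokine genes in the matrix, 3 were above 10 CPM over the library. Cxcl14 was at 133 CPM and reached 2420 CPM in the vFB3-like cells of cluster 10, where each of the 44 thinned cells held a UMI of it. It was at 6.99 CPM in FB4-like cells against 126 CPM in unclassed fibroblasts, the former being under its free RNA bound of 11.5 CPM, and at 54.0 CPM in the upper against 236 CPM in the lower immediate early gene tercile. Cxcl5, a neutrophil attractant, was at 14.03 CPM, with 0.699 CPM in FB4-like cells, under its free RNA bound of 1.21 CPM, against 17.8 CPM in unclassed cells, and Ccl27a was at 12.3 CPM.

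Of 16 chemokine receptor genes listed 13 were in the matrix and 2 were above 10 CPM, both of them atypical receptors that take up chemokines without G protein signalling. Ackr4, which was also a marker used to name FB4, was at 558 CPM in the FB4-like cells and at 30.6 CPM in the unclassed fibroblasts. Ackr3, which binds Cxcl12, was at 66.6 and 47.3 CPM, a ratio of 1.41 (1.28 to 1.55). Ackr1 was low, at 8.27 against 0.726 CPM, with a ratio of 11.4 (7.08 to 18.9). Ackr3 was higher in cells with at least 2 than in cells with 0 Amotl2 UMIs, with a ratio of 1.51 (1.33 to 1.71) in unclassed fibroblasts and 1.80 (1.48 to 2.18) in FB4-like cells.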
